A study of Homo sapiens with 15 samples.

Results

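MicroRNA genes and microRNA host genes were followed in MT-2, a cell line of CD4+ T cells that carry the human T-cell leukaemia virus HTLV-1. The array measures genes by transcript clusters, which are sets of probes that read 1 transcript or a stretch of it. A cluster was included when any of its gene symbols began with MIR and a digit, or with MIRLET7, so that host genes named for their microRNA (symbols ending in HG) were taken in. This rule used names only and found 223 of 28926 clusters. Of these, 181 carried microRNA symbols alone, and 42 also or only carried a host gene or another gene. Within these 42, a microRNA shared the cluster with a gene in 24, and a host gene stood alone in 18. The cells were cultured for 48 hours with IFN-α (1000 IU/ml of IFN-α2A), with no treatment, or with ascorbic acid (AA) at a low (10 µg/ml), intermediate (50 µg/ml) or high dose (100 µg/ml). Each of the 5 conditions was measured on 3 arrays, 1 in each of 3 experiments, which gave 15 arrays. All 5 groups were the same established line in culture, with no genetic change between them. Experiment here means the arrays that share a date in their titles and, on the later date, a letter. Experiments 2 and 3 share that date and differ by the letter alone, whose meaning the titles do not give, so p-values measure the spread between these cultures, which may be partly technical. In these bulk samples, fewer cells of a type and less RNA per cell cannot be told apart.

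A microRNA gene is first transcribed as a long primary transcript. The nuclear enzyme DROSHA with its partner DGCR8 crops a hairpin out of it, exportin-5 carries the hairpin to the cytoplasm, and DICER1 cuts it into the short mature strand that an Argonaute protein holds. The mature strand pairs with messenger RNAs chiefly through its seed, the bases close to its 5′ end. The miR-155 hairpin lies in the non-coding host transcript MIR155HG, which is switched on in activated lymphocytes and is abundant in many lymphomas and in HTLV-1-transformed T cells. A cluster on this array reads primary, host or hairpin RNA, and the level of mature microRNA was not measured here.

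The mature sequences below belong to the genes on which the results turn, and those of 1 family are shown because they cannot be told apart by their seed. Sequences and positions are those of RefSeq on GRCh38.p14, which held a mature sequence for 198 of the 207 microRNA symbols. The array annotation names no genome build, so clusters themselves were given no position. Capitals mark the seed, bases 2 to 8.
miR-155-5p, at chr21:25573983-25574006 on the plus strand: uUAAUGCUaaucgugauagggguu
miR-155-3p, the other arm of the same hairpin: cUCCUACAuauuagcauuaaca
miR-21-5p, at chr17:59841273-59841294 on the plus strand: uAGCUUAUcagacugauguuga
miR-29a-3p, at chr7:130876748-130876769 on the minus strand: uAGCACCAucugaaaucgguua
miR-29b-3p, made from both MIR29B1 and MIR29B2: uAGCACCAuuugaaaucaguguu
miR-29c-3p, from MIR29C: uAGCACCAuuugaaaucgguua
let-7b-5p, from MIRLET7B: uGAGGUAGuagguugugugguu
let-7f-5p, from both MIRLET7F1 and MIRLET7F2: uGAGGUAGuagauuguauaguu
miR-31-5p, at chr9:21512158-21512178 on the minus strand: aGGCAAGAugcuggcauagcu

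MIR155 (chr21:25573980-25574044) lies inside MIR155HG (chr21:25562145-25575168), and the array reads both by 1 cluster. MIR21 (chr17:59841266-59841337) lies near the end of the protein-coding gene VMP1 (chr17:59707654-59842255), MIR186 (chr1:71067631-71067716) inside ZRANB2 (chr1:71063291-71081035), and MIR31 (chr9:21512115-21512185) inside MIR31HG (chr9:21454268-21559798). In these 3 cases the microRNA and the gene around it had clusters of their own. The 3 microRNAs of the miR-29 group share the seed AGCACCA and came from 4 genes, and the seed GAGGUAG was shared by the products of 12 let-7 and miR-98 genes. Where 1 cluster carries 2 microRNA symbols, it cannot separate them. Neighbouring microRNA genes such as MIR29A and MIR29B1 had clusters of their own. Probe positions were not given, so whether such clusters read the same primary transcript was not tested.

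Most microRNA clusters were dim. The median log2 level over the 15 arrays was 5.05 for the 223 clusters, against 6.76 for all clusters. On all 15 arrays, 105 of the 223 (47.1%) lay below the lower quartile of their array, against 20.4% of all clusters. Above the median on all arrays lay 37 (16.6%), against 44.6% of all clusters. Clusters of host genes alone had a median of 6.89, those with a microRNA and a gene 5.24, and those with microRNAs alone 4.90. A level is not comparable between clusters gene by gene, since probe number and probe response differ, and a dim cluster may hold little more than background.

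The cluster of MIR155 with MIR155HG had a mean log2 value of 10.26 and lay above the median of its array on all 15 arrays. So did MIR326 at 9.47, MIR142, a microRNA gene of blood cells, at 9.23, and MIR21, a microRNA raised in many tumours, at 9.21. MIR4435-2HG with CYTOR, near-identical copies of 1 long non-coding RNA, had 9.25 and 9.06 on 2 clusters. MIR622 with KRT18 had 8.72, but its microRNA lies in a copy of the keratin gene KRT18, so signal from both cannot be told apart. MIR31, a microRNA known to be lost in HTLV-1-associated leukaemia, stood at 5.66, and its host MIR31HG at 4.70, below the lower quartile on all arrays.

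Of the whole table, 1 array stood apart, the third of high-dose AA, whose mean correlation with the other arrays was 0.976 against 0.991 to 0.995 for the rest. It held the highest value of the 15 arrays in 28.3% of the microRNA clusters and in 29.7% of all clusters. It held the lowest value in 13.5% of the microRNA clusters, against 23.4% of all clusters. Its lower quartile was 5.53 and its SD 2.02, against 5.20 to 5.32 and 2.12 to 2.18 on the rest. From the untreated array of experiment 3 it differed by a median of 0.21 over clusters always below the lower quartile. Over clusters always above the median this was -0.15. For the microRNA clusters in these 2 ranges the medians were 0.04 and 0.18. Over the microRNA clusters the first high-dose array also stood out, with the lowest value in 21.1% of them against 12.6% of all clusters. High-dose differences of clusters described below that moved by over 1.5 times or changed sign without the third array are given with that value too, and its part in the changes was not otherwise tested. The cells showed bright CD4 (10.82), IL2RA (13.28) and CCR4 (11.36), while CD3E (5.26), CD3D (5.78) and CD247 (5.87), parts of the T-cell receptor complex, lay below the median of all clusters. MS4A1, 1 of 3 measured B-cell markers, and LYZ, 1 of 4 measured monocyte or macrophage markers, lay below the lower quartile on every array. The levels of the other markers looked up are not given here.

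The first question was whether AA lowered or raised the MIR155 cluster across its doses. The cluster was lower with every dose. In experiments 1, 2 and 3, its log2 values were 10.73, 10.51 and 10.40 in untreated cells. They were 10.41, 10.37 and 10.19 at the low dose, 10.26, 10.13 and 9.98 at the intermediate dose, and 10.04, 10.08 and 9.92 at the high dose. Within each experiment every dose step lowered the value, and no value at the intermediate or high dose overlapped those of untreated cells. Of the 223 clusters, 1 showed this order in all 3 experiments, against 0.0795% of all clusters.

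High-dose cells had a mean of 10.01 ± 0.08 against 10.55 ± 0.17 in untreated cells (SD, n = 3 each). The difference was -0.53 (standard error 0.104, 95% interval -0.76 to -0.31), or 30.9% less signal on the linear scale. It passed the threshold used for calls here and by the study, an unadjusted limma p under 0.001, and had an adjusted p = 0.260 over all clusters. The difference at the intermediate dose was -0.42 (95% interval -0.65 to -0.20), which did not pass the threshold without a block and passed it with experiment as a block. At the low dose it was -0.22 (95% interval -0.45 to -0.00), which reached p under 0.05 and not the threshold. With the block the adjusted p at the high dose was 0.0692, so no difference passed an adjusted p of 0.05. The study itself names miR-155 from these arrays, as regulated at both the high and the intermediate dose. The values are therefore not independent evidence of its direction. Leaving out 1 array or 1 experiment moved the high-dose difference between -0.61 and -0.44. The call was lost without the untreated array of experiment 1 (-0.44), without experiment 1 (-0.45) and without experiment 2 (-0.58).

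**Figure D1:**
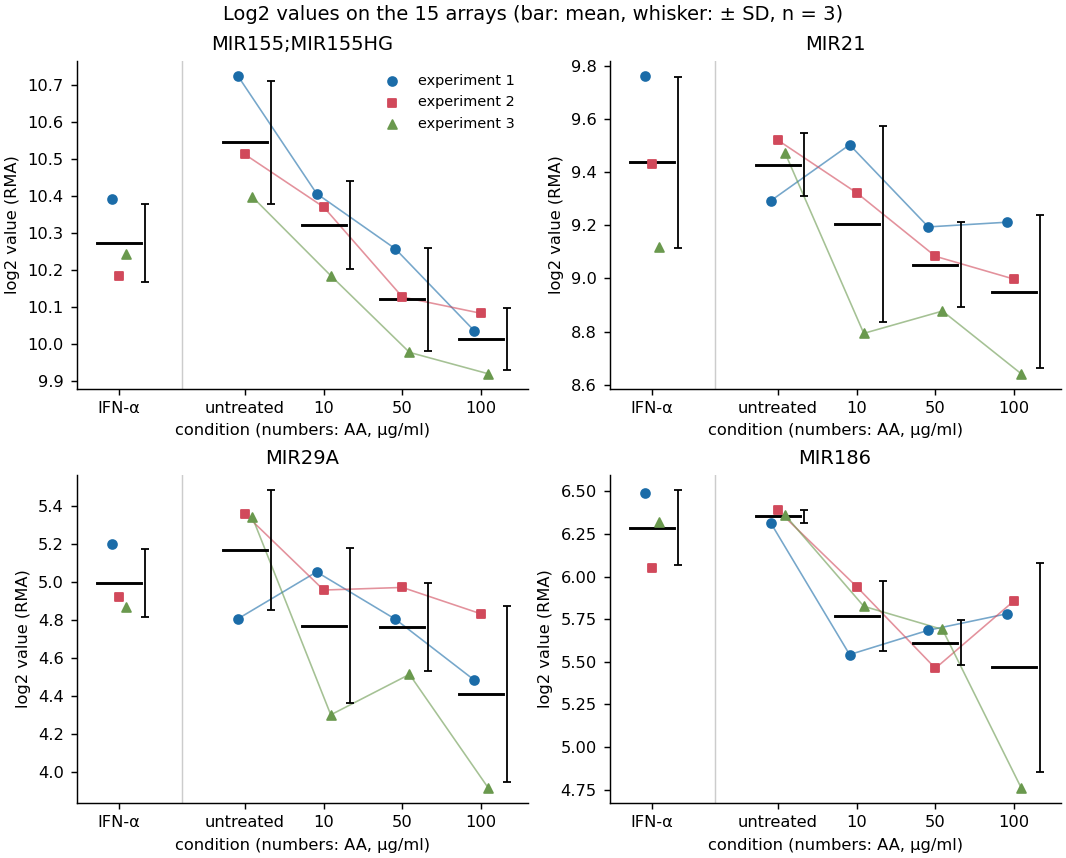
Log2 values (y-axis) of 4 clusters under IFN-α, in untreated cells and at 10, 50 and 100 µg/ml AA (x-axis), where colours and markers are experiments, lines join the AA series of 1 experiment, bars are means and whiskers ± SD (n = 3). The MIR155 values step down at every dose in every experiment, while MIR186 is lower at all doses with no further order, and the third high-dose array is the lowest of MIR29A, MIR186 and MIR21.

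The slope over the 12 arrays without IFN-α was -0.48 on the log2 scale per 100 µg/ml, which was called by limma (adjusted p = 0.352). Within experiments 1, 2 and 3 it was -0.59, -0.41 and -0.43. An exact two-sided permutation test of the doses within experiments, with 13824 orders, gave p = 0.00094. MIR29A and MIR21 were the only other clusters tested this way. The study had already named miR-155 from these arrays, and the permutation p-value of MIR155 makes no allowance for that choice. The steps were -0.20 between the intermediate and the low dose (95% interval -0.42 to 0.02) and -0.11 between the high and the intermediate dose (95% interval -0.33 to 0.12), and neither reached p under 0.05. With experiment as a block the step between the intermediate and the low dose did so, and neither step was called. When the third high-dose array was left out, the slope was -0.45 and was no longer called, while the difference at the high dose was -0.49 and still called. The slope was also not called without the untreated array of experiment 2 (-0.46), without experiment 1 (-0.42) or without experiment 2 (-0.51).

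Under IFN-α the MIR155 cluster had values of 10.39, 10.19 and 10.24, and all 3 lay below the untreated values of 10.73, 10.51 and 10.40. The difference was -0.27 (95% interval -0.50 to -0.05), which reached p under 0.05 in limma and was not called. High-dose AA against IFN-α gave -0.26 (95% interval -0.48 to -0.04, adjusted p = 0.365). All treatments were compared with the same 3 untreated arrays, so the 4 differences are not independent of each other.

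The genes whose values ran most like the MIR155 cluster were searched among 19310 clusters with 1 symbol, after the mean of each experiment was subtracted. Over the 15 arrays, the highest Pearson correlations were those of ZNF182 (0.942), SNORD116-29 (0.890), KCNA3 (0.881), SULF1 (0.861) and SLC7A11 (0.845). ZNF182 encodes a zinc finger protein, SNORD116-29 a small nucleolar RNA, KCNA3 a potassium channel of T cells, SULF1 a sulphatase, and SLC7A11 the cystine and glutamate exchanger. At the high dose these 5 differed from untreated cells by -0.19, -0.58, -0.18, -0.38 and -0.64 in that order, and by -0.15, -0.57, -0.17, -0.35 and -0.67 without the third high-dose array. The values share the 15 arrays and the conditions, so the correlations are a description.

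The promoter of MIR155HG is shown because known activators of this gene act there. The window runs from 250 bases before to 50 bases after the start of the transcript, at chr21:25561895-25562194 on the plus strand of GRCh38.p14. Capitals mark the letters TGAGTCA, bound by AP-1 factors, which begin 60 bases before the start.
MIR155HG promoter: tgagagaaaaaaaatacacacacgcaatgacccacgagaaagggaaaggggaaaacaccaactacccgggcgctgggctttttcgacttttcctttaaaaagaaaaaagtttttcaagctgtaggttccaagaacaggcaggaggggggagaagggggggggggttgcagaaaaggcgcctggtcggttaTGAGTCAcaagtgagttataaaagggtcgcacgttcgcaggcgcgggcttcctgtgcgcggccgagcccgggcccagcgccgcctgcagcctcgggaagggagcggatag
Of 4 motifs searched on both strands, TGAGTCA matched 1 time, and 4.95% of 35116 promoter windows of this length held it. A pair of NF-kB motif forms (in 0.191% and 0.145% of windows) and the ISRE core (0.265%), which IRF factors bind, had 0 matches in this window. A match of letters is no measured binding site, and a missing match says only that these letters are not in the window.

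The 16 activators looked up, of the NF-kB, AP-1, ETS, IRF, MYB and STAT families, were all measured, and none passed the threshold of 0.001. Of the 16, 12 were lower and 4 higher at the high dose, with a median difference of -0.13 against 0.02 for all clusters. JUN, an AP-1 subunit, differed by -0.41 (adjusted p = 0.452), and STAT3, a cytokine-driven transcription factor, by -0.34 (adjusted p = 0.441). Both reached p under 0.05 in limma, a level that 11% of all clusters reached. Without the third high-dose array they were -0.14 and -0.20, neither at p under 0.05, and the list had 9 lower and 7 higher with a median of -0.01. REL and IRF4, which act in lymphocyte activation, differed by -0.25 and -0.18 without reaching 0.05, and by -0.17 and -0.07 without that array. Under IFN-α, 3 of the 16 were lower and 13 higher, with a median of 0.04.

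The second question was how MIR21 and MIR29A behaved. MIR21 was lower at the high dose in all 3 experiments, at 9.21, 8.997 and 8.64 against 9.29, 9.52 and 9.47 in untreated cells, with no overlap. The difference was -0.48 (standard error 0.195, adjusted p = 0.442). It reached p under 0.05 and was not called. It was -0.08 in experiment 1, -0.52 in experiment 2 and -0.83 in experiment 3. The slope with dose was -0.42 per 100 µg/ml (exact permutation p = 0.0182). After removal of the third high-dose array, the high-dose difference was -0.32 and the slope -0.30, and neither reached p under 0.05 in limma. Under IFN-α the MIR21 values were 9.76, 9.43 and 9.12, on both sides of those of untreated cells, and the difference was 0.01 (95% interval -0.41 to 0.43).

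VMP1, whose span holds MIR21, encodes a membrane protein of autophagy. Its cluster had 10.78, 10.74 and 10.58 at the high dose, against 10.44, 10.86 and 10.86 in untreated cells. The difference was -0.01, and 0.05 without the third high-dose array. The gap between MIR21 and VMP1 was not tested as a difference.

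MIR29A was dim, at a mean of 4.82. Its high-dose values were 4.49, 4.83 and 3.92, against 4.81, 5.36 and 5.34 in untreated cells, and the groups overlapped by the values of experiments 1 and 2. The difference was -0.76 (standard error 0.240, 95% interval -1.27 to -0.24, adjusted p = 0.422). It was -0.32, -0.53 and -1.43 in the 3 experiments, and -0.51 without the third high-dose array. With and without that array it reached p under 0.05 in limma and was not called. The slope was -0.61 per 100 µg/ml (exact permutation p = 0.0166), and without that array -0.38, which did not reach p under 0.05 in limma. Under IFN-α the values were 5.20, 4.92 and 4.87, and the difference was -0.17 (95% interval -0.69 to 0.34).

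The other genes of the miR-29 group had smaller differences. At high-dose AA, MIR29B1, next to MIR29A, differed by 0.00 at a level of 2.96, the MIR29B2 cluster by 0.18 at 3.65, and the MIR29C cluster by -0.08 at 5.42, and none reached p under 0.05. When the third high-dose array was left out, these were -0.07, 0.02 and -0.22, again with none at p under 0.05. The 16 listed messenger RNA targets of miR-29 were all measured. Of these, 11 were lower and 5 higher at the high dose, with a median of -0.10 against 0.02 for all clusters. COL4A1, a basement membrane collagen, differed by -0.48 (adjusted p = 0.445) and TBX21, a transcription factor of T helper cells, by -0.29 (adjusted p = 0.442). These 2 of the 16 reached p under 0.05 in limma, a level that 11% of all clusters reached. Without the third high-dose array COL4A1 and TBX21 were at -0.12 and -0.16 and did not reach it. Of 11 measured miR-21 targets 7 were lower and 4 higher, and 9 lower and 2 higher without that array. PDCD4, an inhibitor of translation, differed by -0.43 (adjusted p = 0.441), and by -0.24 without it.

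Of 18 measured targets of miR-155, 12 were lower at the high dose and 6 higher, with a median of -0.07. TP53INP1, a stress protein of the p53 pathway, differed by -0.48 (adjusted p = 0.445), and it was the only one of the 18 to reach p under 0.05. It was -0.30 without the third high-dose array and then did not. SOCS1, an inhibitor of cytokine signalling, differed by 0.04 and the phosphatase gene INPP5D by -0.04, and by 0.11 and 0.07 without that array. No target of any of the 3 microRNAs passed the threshold of 0.001 under any treatment.

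Among the microRNAs without a host gene on their cluster, MIR186 had the largest fall by value. Its 3 untreated values were close together, at 6.31, 6.39 and 6.36. The values were 5.54, 5.94 and 5.83 at the low dose, 5.69, 5.46 and 5.69 at the intermediate dose, and 5.78, 5.86 and 4.76 at the high dose. Every AA value lay below every untreated value, with no order between the doses. The differences were -0.58 at the low dose, -0.74 at the intermediate dose and -0.89 at the high dose (standard error 0.223, adjusted p = 0.385 at the high dose), each at p under 0.05 in limma and none called. The third high-dose array carried much of the last, which was -0.53 without it. In the fit without that array, those at the low and the intermediate dose kept their values and were called. Under IFN-α the values were 6.49, 6.05 and 6.32, which overlapped those of untreated cells (difference -0.07).

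ZRANB2, a splicing factor gene whose span holds MIR186, was also lower at each dose. High-dose values were 9.42, 9.41 and 9.14, against 9.79, 9.74 and 9.64 in untreated cells, a difference of -0.40. At the low and intermediate doses the differences were -0.31 and -0.26. All 3 reached p under 0.05 in limma. Under IFN-α it was -0.07. The microRNA and its host thus had the same sign at every dose, and neither was called.

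The calls over the whole set were few. With 28926 clusters tested, about 28.9 calls at p under 0.001 would be made on average in a comparison where nothing changed. Over all clusters, fewer were made at the low dose (6, and 18 with experiment as a block) and at the intermediate dose (9, and 19). An absent call at these doses is therefore weak evidence of no change. At the high dose, 1 of the 223 clusters (0.448%) was called, that of MIR155, against 0.259% of all clusters. It was also the 1 called for the slope, against 0.245% of all. None of the 223 was called at the low dose (0.0207% of all clusters), at the intermediate dose (0.0311%), under IFN-α (0.28%) or for high-dose AA against IFN-α (0.65%). With experiment as a block, 1 cluster was called at the low dose (0.0622% of all), 1 at the intermediate dose (0.0657%), 1 at the high dose (0.667%), 0 under IFN-α (0.349%), 0 for high-dose AA against IFN-α (1.22%) and 2 for the slope (0.785%). The added calls were MIRLET7B with MIRLET7BHG at the low dose, MIR155 at the intermediate dose and MIR31 for the slope. Without the high-dose array of experiment 1, and no block, 6 of the 223 were called at the high dose, against 418 of all clusters. That fit gave 5 for high-dose AA against IFN-α (586 of all clusters) and 4 for the slope (199 of all). With no array left out, 75, 188 and 71 of all clusters were called in these comparisons. Leaving out other arrays or experiments gave 0 to 2 calls among the 223. None of the 223 had an adjusted p under 0.05 in any of these comparisons, against 0.221% of all clusters under IFN-α, 0.325% for high-dose AA against IFN-α and 0% in the others.

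At the weaker level of p under 0.05, 27 clusters (12.1%) differed at the high dose, against 11% of all clusters, a share near the background. Higher were 15 (7.34% of all clusters) and lower 12 (3.62%). Of the 27, 9 were below the lower quartile on all arrays. Without the third high-dose array, 10 clusters reached this level, 3 higher and 7 lower, against 4.93% of all clusters. The slope gave 23 clusters, 10 higher and 13 lower, against 11.5%, and 11 without that array, against 4.93%. At the low dose 14 (6.28%) did so, against 2.54% of all clusters, and 8 of these were among the 42 clusters with a host or other gene. The intermediate dose gave 7 against 2.34%, and IFN-α 6 against 1.39%. High-dose AA against IFN-α gave 19, 11 higher and 8 lower, against 12.1%.

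Values that did not overlap those of untreated cells were counted as well. At the low dose 22 clusters lay wholly above (6.69% of all clusters) and 10 wholly below (4.88%). At the intermediate dose the counts were 15 above (5.69%) and 8 below (4.67%), and at the high dose 12 above (6.86%) and 11 below (3.66%). Under IFN-α they were 5 above (2.62%) and 9 below (2.93%).

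**Figure D2:**
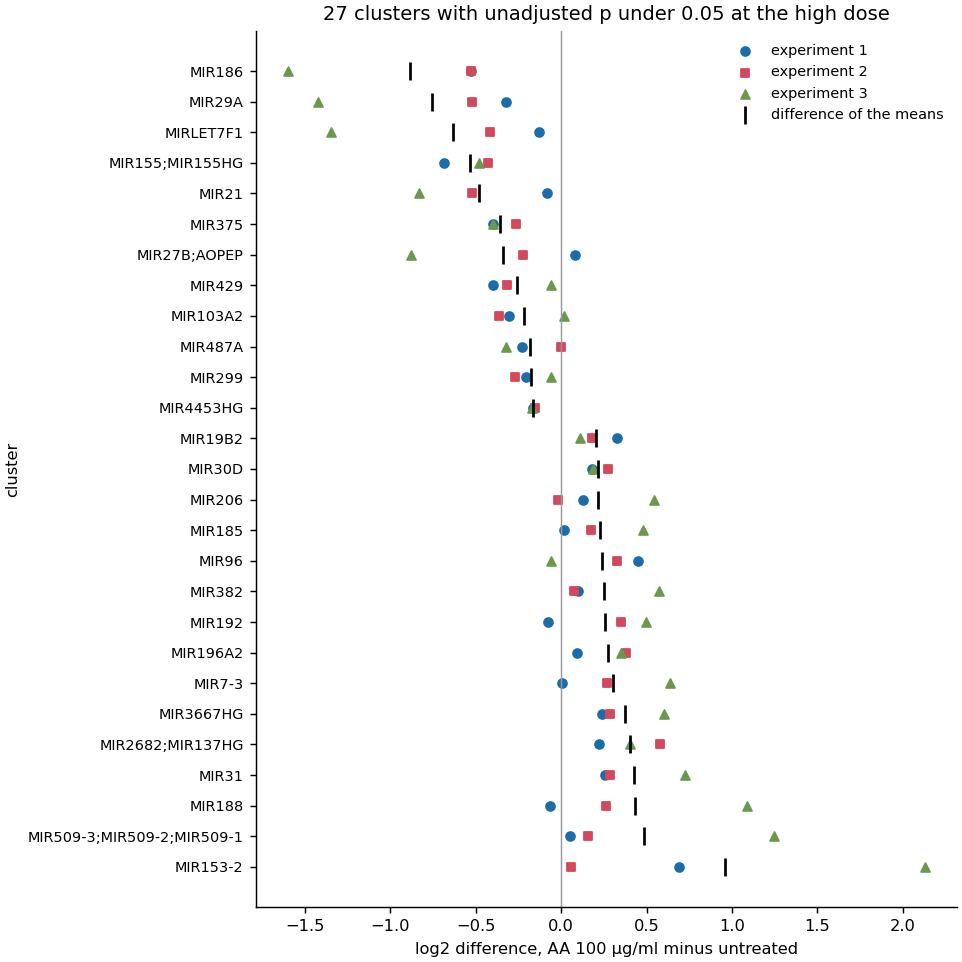
Log2 difference between high-dose AA and untreated cells (x-axis) for the 27 clusters with unadjusted p under 0.05 (y-axis), where coloured markers are the experiments and the black tick the difference of the means. The 3 experiments lie close together for MIR155, MIR375 and MIR4453HG, while experiment 3 lies far out for MIR186, MIR29A, MIRLET7F1, MIR188 and MIR153-2.

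Among the 12 lower clusters, MIR375 differed by -0.40, -0.27 and -0.40 in the 3 experiments (mean -0.36, adjusted p = 0.422). After removal of the third high-dose array, the difference was -0.24 and did not reach p under 0.05. Its high-dose values were 7.02, 7.19 and 6.76, against 7.42, 7.45 and 7.16 in untreated cells, and the groups overlapped. MIR375 is known from pancreatic islets. MIR429, of the miR-200 family that restrains epithelial to mesenchymal transition, differed by -0.26 (adjusted p = 0.426), with 6.18, 6.20 and 6.36 against 6.58, 6.52 and 6.41 in untreated cells and no overlap. MIR4453HG, a host gene alone on its cluster, differed by -0.16 (adjusted p = 0.444), with -0.17, -0.15 and -0.17 in the 3 experiments. The low-dose difference was -0.17, also without overlap.

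Among the 15 higher clusters, MIR153-2 had the largest difference, 0.96 (adjusted p = 0.437). Its high-dose values were 5.01, 4.75 and 6.57, against 4.32, 4.69 and 4.44 in untreated cells, so that 1 array set most of it. Without that array the difference was 0.40 and did not reach p under 0.05. MIR31 had 5.72, 5.73 and 6.42 at the high dose, against 5.46, 5.44 and 5.70 in untreated cells, a difference of 0.42 (adjusted p = 0.442) that was 0.19 without the third array. Its slope was 0.44 per 100 µg/ml, called only with experiment as a fixed block, and 0.22 without the third array, where it did not reach p under 0.05. The host MIR31HG differed by 0.10, and by -0.06 without that array. MIR3667HG, a host gene alone, was higher at the low dose by 0.33 and at the high dose by 0.38 (adjusted p = 0.441), without overlap at either. When the third high-dose array was left out, the high-dose difference was 0.26 and did not reach p under 0.05.

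**Figure D3:**
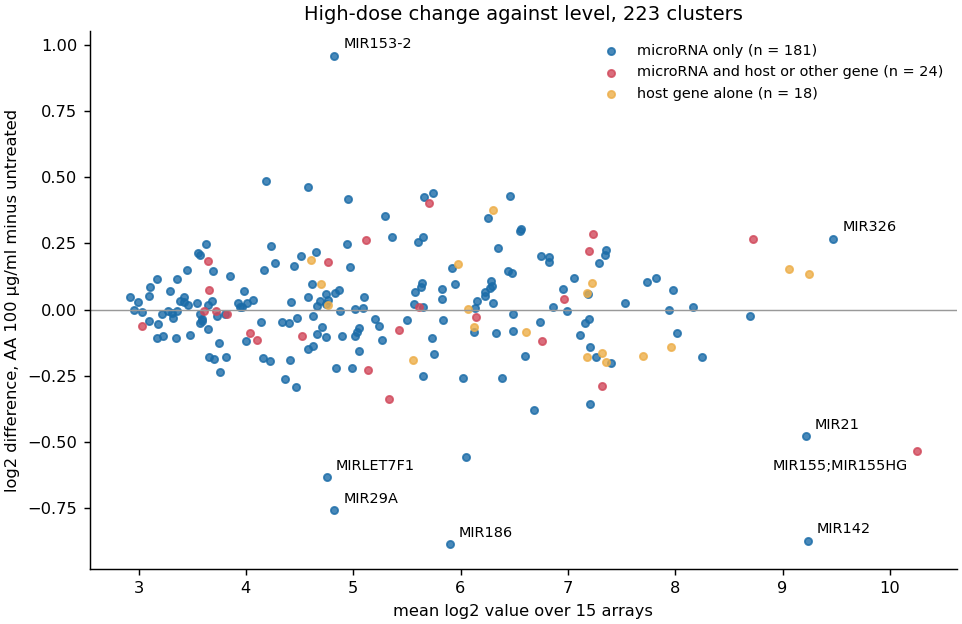
Log2 difference between high-dose AA and untreated cells (y-axis) against the mean log2 value over 15 arrays (x-axis) for the 223 clusters, coloured by what the cluster carries. The MIR155 cluster, at a level of 10.26, lies at -0.53, and the differences run from -0.89 (MIR186) to 0.96 (MIR153-2).

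MIR142 shows how far single arrays could move a cluster that lay above the median throughout. Its high-dose values were 8.98, 9.83 and 7.09, against 8.70, 10.04 and 9.77 in untreated cells. The difference was -0.87 (adjusted p = 0.540), with an SD of 1.40 among the high-dose arrays. Without the third high-dose array it was -0.10. Over the 15 arrays its range of 2.95 was the widest of the 223 clusters, and the values of experiment 1 lay below those of experiment 2 under every condition. MIR326 had 9.11, 9.73 and 10.00 at the high dose, against 9.43, 9.50 and 9.12 in untreated cells (difference 0.27, adjusted p = 0.574). After removal of the third high-dose array, this was 0.08.

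The direction was also counted over all doses. Below untreated cells at all 3 doses in all 3 experiments lay 8 clusters of the 223 (3.59%), against 3.07% of all clusters. They were MIR155, MIR186, MIR429, MIR181B1, MIR15B, MIR4453HG, MIRLET7F1 and MIR24-1 with AOPEP. Above at all doses lay 6 (2.69%), against 2.39%. They were MIR2682 with MIR137HG, MIR181A1, MIR7-3, MIR185, MIRLET7B with MIRLET7BHG and MIR92A2. Both shares were near the background. Over all 223 clusters the median difference was 0.02 at the low, 0.00 at the intermediate and 0.01 at the high dose and -0.01 under IFN-α. By experiment the high-dose median was -0.12, 0.01 and 0.11 in experiments 1, 2 and 3, so that the sign of the median differed between experiments.

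Of the 42 clusters with a host or other gene, 22 were lower at the high dose and 20 higher, with a median of -0.01. When the third high-dose array was left out, 26 were lower and 16 higher, with a median of -0.05. Apart from MIR155 with MIR155HG, the differences ran from -0.34 (MIR27B with AOPEP) to 0.40 (MIR2682 with MIR137HG), and these 2 were -0.11 and 0.28 without that array. MIR17HG, host of the miR-17-92 cluster that drives lymphocyte growth, had 7.08, 6.98 and 6.98 at the intermediate dose, against 7.21, 7.33 and 7.44 in untreated cells, without overlap (difference -0.32). Its high-dose values of 7.44, 7.10 and 6.90 overlapped them (difference -0.18, and -0.06 without the third array). The 2 clusters of MIR4435-2HG with CYTOR differed by 0.14 and 0.16 at the high dose, and neither reached p under 0.05. Without the third high-dose array they were 0.00 and -0.02. MIR22HG, raised by many cell stresses, differed by 0.17, and by 0.03 without that array.

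Under IFN-α the differences of all 223 clusters lay between -0.34 and 0.38. MIR600HG, a host gene alone, had the lowest, with 5.99, 5.94 and 5.81 against 6.21, 6.42 and 6.12 in untreated cells and no overlap (difference -0.34). MIR2682 with MIR137HG had the highest, with 5.88, 5.58 and 5.88 against 5.19, 5.39 and 5.64 in untreated cells, which overlapped (difference 0.38). MIR133A1 with its host (-0.19), MIR299 (-0.17) and MIR202 with its host (0.18) were the others to reach p under 0.05 besides MIR155, and these 3 lay below the lower quartile on all arrays. MIR146A, which in lymphocytes damps NF-kB signalling, stood below the lower quartile throughout and differed by -0.03.

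In the let-7 family, whose members share the seed shown above, 12 clusters were measured, counting a let-7 host gene. Of these, 9 were higher and 3 lower at the high dose, with a median of 0.06 against 0.02 for all clusters. After removal of the third high-dose array, 6 were higher and 6 lower, with a median of 0.01. MIRLET7B with MIRLET7BHG had 7.35, 7.49 and 7.39 at the low dose, against 6.99, 7.16 and 6.91 in untreated cells, without overlap. The difference was 0.39, and 0.28 and 0.29 at the intermediate and high doses. With experiment as a block, the low-dose difference was called. MIRLET7A3 with MIRLET7BHG, from the same host, differed by 0.25 at the low dose, and the cluster of MIRLET7BHG alone by 0.16. MIRLET7F1 lay on the other side, at -0.63 at the high dose (adjusted p = 0.439), with 4.89, 4.36 and 3.72 against 5.02, 4.77 and 5.07 in untreated cells, and at -0.33 without the third array.

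Of the 25 measured clusters from a list of microRNA genes known in T cells or HTLV-1 infection, 14 were lower at the high dose and 11 higher, with a median of -0.03. MIR155, MIR29A and MIR21 were the 3 lower at p under 0.05, a level that 3.62% of all clusters reached in this direction, and MIR31 the 1 higher, against 7.34% of all clusters. When the third high-dose array was left out, MIR155 and MIR29A were the 2 left, at a level that 4.93% of all clusters then reached in either direction. MIR150, a microRNA of resting lymphocytes, differed by -0.01, MIR223 by 0.05, MIR221 by -0.38 and MIR222 by 0.02. Without that array these were -0.12, 0.07, -0.11 and -0.06. The 7 measured clusters of the miR-17 family differed between -0.18 and 0.21, and the 7 of the microRNA cluster on chromosome 19 between -0.05 and 0.18.

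Intronic microRNAs were set beside their hosts. Of 61 pairs listed, 45 had the microRNA and the host on different clusters, over 36 host genes. In 21 of the 45 pairs the microRNA lay below the lower quartile on all arrays. The microRNA and its host had the same sign in 28 pairs at the low dose, 26 at the intermediate dose, 26 at the high dose and 22 under IFN-α. Under high-dose AA, 4 of the 45 microRNAs (8.89%) and 2 of the 36 hosts (5.56%) reached p under 0.05, against 11% of all clusters. MIR186 with ZRANB2 was the pair in which both did so. Without the third high-dose array 3 microRNAs and 4 hosts reached this level, against 4.93% of all clusters. MIR15A differed by -0.56 and its host DLEU2 by 0.15, and without that array by -0.27 and 0.03.

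The genes that make and use microRNAs were looked up as a list. Of 27 looked up, 26 were measured, among them DROSHA, DGCR8, XPO5, DICER1 and AGO1 to AGO4. None passed the threshold of 0.001 under any treatment. Lower by any amount were 21 at the low dose, 23 at the intermediate dose and 17 at the high dose, with medians of -0.06, -0.06 and -0.01 against 0.01, 0.01 and 0.02 for all clusters. DICER1 differed by -0.05 and -0.08 at the low and intermediate doses, and DROSHA by 0.13 at the high dose. TUT4, which adds uridines to microRNA precursors, differed by -0.23 at the high dose (adjusted p = 0.445), and LIN28A, a let-7 inhibitor, by 0.37 (adjusted p = 0.454), or by 0.16 without the third high-dose array, when 11 of the 26 were lower and 15 higher. Under IFN-α, ADAR, an interferon-induced RNA editing enzyme, differed by 0.36, which reached p under 0.05 in limma and was called with experiment as a block.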

How the data were processed

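RNA of MT-2 cells was hybridised to Affymetrix Human Gene 1.0 ST arrays, 1 sample per array. The log2 values used here are those the authors deposited, made by robust multi-array average (RMA) from the scanned arrays. RMA pulls the arrays towards a common distribution, so a shift shared by most genes cannot be seen. The third high-dose array still had a narrower spread than the rest. The genome build of the annotation was not given in the sources used here. Groups came from the sample labels.

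Differences were fitted with limma 3.58.1 in R 4.3.3 on all 28926 clusters and 15 arrays, with Benjamini-Hochberg adjustment over all clusters. No block was used, since the study's methods name none, but this fit did not match the study's counts. The study reported 12 regulated genes at the low and 17 at the intermediate dose. Without a block 6 and 9 clusters were called, and with a random block for experiment 12 and 17. As in the study, 3 of the 12 were higher and 9 lower, and 2 of the 17 were higher and 15 lower. At the high dose the fits without a block and with the random block called 75 and 150, and under IFN-α 81 and 97. Neither fit equals the study's counts there, which lay nearer those with the random block. A call is an unadjusted p under 0.001. The slope used the 12 arrays without IFN-α, and the exact permutation tests used scipy 1.17.1. With 3 arrays a group, the number of arrays limits the precision. The fit was tested on simulated data. The members and gene lists were chosen with earlier results of these data known. Clusters named are MIR155, MIR29A and MIR21, clusters with a host gene, clusters called, up to 10 per comparison and up to 4 per list with the smallest p, and the 5 clusters most like MIR155. MIR150, MIR222, MIR223, MIR146A, MIR326, MIR142, SOCS1, INPP5D, DICER1, DROSHA, MIR29B1 and others outside this rule were named for their known roles, after their values were seen. Experiment numbers stand for the dates and letters in the titles. Number 1 has a date of its own, while numbers 2 and 3 share a date and differ by a letter that the titles do not explain, so the pairing within that date rests on the letter. Deviations of same-numbered arrays had a median correlation of 0.281 over 30 pairs (-0.194 to 0.536), against -0.172 over 60 pairs of different numbers. The deviations were taken from the mean of each group, which ties these medians to each other, so the second adds no separate support for the pairing. Alternatives were a fixed or random block for experiment, a filter on the dimmest 25% of clusters, a trended variance, array weights, cyclic loess, a fit of the compared groups alone, and leaving out each array or experiment.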

Additional observations from a re-analysis of the deposited data

How the results depend on the processing

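No result changed direction under the alternatives tried for the MIR155 cluster and the counts of calls. With experiment as a fixed block the counts were 1 at the low dose, 1 at the intermediate dose and 2 for the slope, against 0, 0 and 1 without it, and with a random block 1 at the intermediate dose. The intermediate-dose difference of MIR155 was -0.42 with a fixed block, a random block or a trended variance, and -0.36 with array weights, and was called in each. The pairing changed no other call of the MIR155 cluster. A trended variance gave 1 call at the intermediate dose, against 11 of all clusters. A fit of the compared groups alone gave 1, 1 and 0 calls at the low, intermediate and high doses, against 24, 12 and 7 of all clusters. In that fit the high-dose difference of MIR155 (-0.53) was not called. Array weights gave 1, 2 and 23 calls at the 3 doses and 17 for high-dose AA against IFN-α. Over all clusters they gave 97, 74 and 2089 calls at the 3 doses and 2150 for high-dose AA against IFN-α. The cause was not tested.

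Leaving out 1 array or experiment moved the counts between 0 and 1 at the low dose, 0 and 2 at the intermediate dose, 0 and 6 at the high dose, 0 and 5 for high-dose AA against IFN-α, and 0 and 4 for the slope. The counts of 6, 5 and 4 came without the high-dose array of experiment 1, where 418, 586 and 199 of all clusters were called. MIR155 moved between -0.50 and -0.34 at the intermediate dose, between -0.61 and -0.44 at the high dose, and between -0.53 and -0.40 for the slope. The filter on dim clusters removed MIR29A from the fit. The precision is limited by 3 arrays a group, and 47.1% of the clusters lay below the lower quartile of their array on all arrays.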
